A study of Caenorhabditis elegans with 6 samples.

Results

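The transcriptome of wild-type early embryos of Caenorhabditis elegans was ordered by the abundance of its transcripts. Of the 6 libraries in the series, the 2 labelled wild-type were used, and in them every one of the 20182 genes of the deposited count table was given a level per coding length. No library of another genotype enters any value on genes here. The wild-type animals were of the strain GW1, and per the labels the 2 replicates were grown independently, as synchronised liquid cultures on the E. coli strain HB101 at 20 °C. After 60 to 65 h the adults were gravid, and hypochlorite set their embryos free. The series also holds libraries of the mutants cec-4 and met-2 set-25 and asks how expression changes when chromatin loses its anchor at the nuclear envelope. Total RNA was depleted of ribosomal RNA rather than selected for poly(A) tails, so transcripts with short or no tails, such as those of replication-dependent histone genes, could be sequenced.

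The nematode embryo starts with RNA and protein that the mother loaded into the oocyte. Maternal RNA-binding proteins and polarity proteins set up unequal divisions, and the embryo's own genome is then switched on lineage by lineage, by transcription factors that specify gut, muscle, pharynx, skin and nerve cells. Cleavage is fast and proceeds without growth, so an early embryo needs large stocks of ribosomes, histones and parts of the division machinery, whereas genes for feeding, sensing and mating come into use much later.

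A level is a count divided by the coding length of the gene and scaled so that the genes of a library sum to 1000000, the unit known as TPM, here over coding lengths. Paired values are those of wild-type replicate 1 and wild-type replicate 2, in this order, and errors after ± are SDs over n = 2 libraries. The wild-type libraries held 45677214 and 41662785 counts over genes, within the 30171874 to 45677214 of all 6 libraries, and 17184 and 17333 genes had a count. A floor of 3 counts corresponded to 0.0786 and 0.0917 TPM for a gene of the median coding length, 1008 bases, and it covers counting error only. Over the 16489 genes with counts in both libraries, log2 levels had a Pearson r of 0.98 and a Spearman rho of 0.984, as a description across genes of 1 group. With 1 group there is nothing to test the levels against, so every value below is a description.

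Levels spread over more than 6 orders of magnitude, with genes in every class from no count to 1000 TPM or more. At 1 TPM or more stood 11398 and 11948 genes, and the mean level reached this mark in 11710 genes, which is 58.0% of the table. Genes with a mean of at least 1 TPM are called active below. The word does not tell RNA loaded by the mother from RNA made in the embryo. The median over all genes was 2.42 and 3.29 TPM. Between 10 and 100 TPM lay 5666 genes, which held 24.9% of the summed TPM, and 2493 genes between 100 and 1000 TPM held 55.8%. Only 72 genes reached 1000 TPM, and these short genes, with a median coding length of 411 bases, held 17.8%. At the other end, 2154 genes (10.7%) had no count in either library, and 2421 genes were above 0 but below 0.1 TPM. Between these ends lay 3897 genes (19.3%) from 0.1 to 1 TPM and 3479 genes (17.2%) from 1 to 10 TPM.

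The mass of the transcriptome was concentrated but not in a handful of genes. The 10 most abundant genes held 8.13% and 7.82% of the summed TPM, the top 100 held 20.3% and 20.5%, and the top 1000 held 52.2% and 51.8%. A total of 898 and 915 genes made up 50% of the summed TPM, and 4762 and 5016 genes made up 90%. The agreement of the libraries followed the level: the median absolute log2 difference between them was 0.20 among genes at 1000 TPM or more, 0.26 from 100 to 1000 TPM, 0.33 from 10 to 100 TPM and 0.60 from 1 to 10 TPM. Genes next to the mark of 1 TPM show what it separates. Just above it stood the transcription factor gene zip-10 (0.583 and 1.42 TPM), unk-1 (0.794 and 1.22 TPM) and WBGene00017857 (1.01 and 0.995 TPM). Just below it stood hot-3 (0.849 and 1.15 TPM), F08A8.8 (1.58 and 0.414 TPM) and T06F4.1 (0.521 and 1.47 TPM). All 6 genes were above 1 TPM in a single library and below it in the other.

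**Figure D1:**
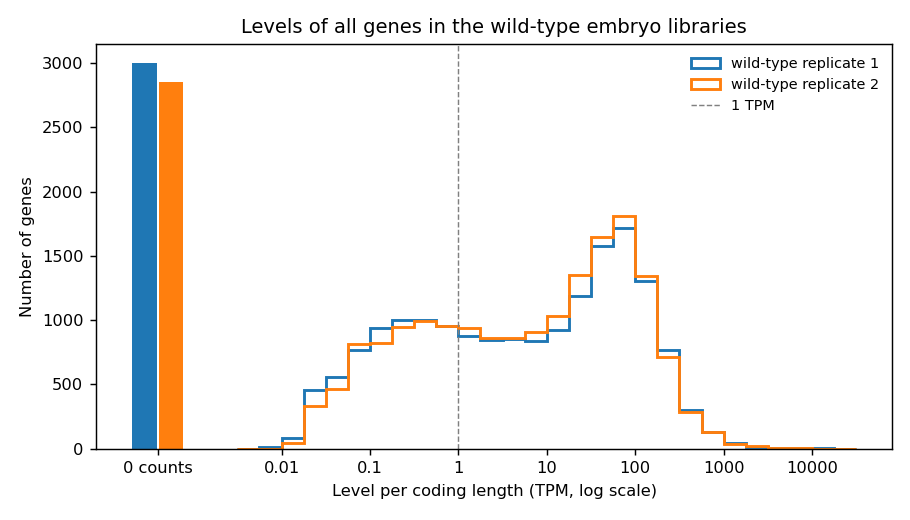
Number of genes by level in each wild-type library, on a log axis of TPM per coding length, with bars at the left for genes without a count. The active genes peak between 10 and 100 TPM, where 5666 genes lie by their mean, and the dashed line marks 1 TPM, reached by 11398 and 11948 genes.

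Core histones led the list of abundant transcripts. Histones package the DNA that each cleavage copies, and replication-dependent histone transcripts end in a stem-loop in place of a poly(A) tail. The most abundant transcript was that of the H2A gene his-3 (WBGene00001877, WBcel235 V 16040808 to 16041191, protein coding), with 15964.5 and 14964 TPM. The H4 genes his-60 (IV 7487681 to 7487992) and his-67 (I 9988452 to 9988763) followed with 13578 and 13278 TPM and 10167 and 8304 TPM. Next came the H2A gene his-61 (8946 and 7972 TPM), the H2B gene his-4 (7800.1 and 6531 TPM) and the H4 gene his-1 (5352 and 5236 TPM). The H2B gene his-62 stood at 4477 and 4327 TPM, the H3 genes his-59 and his-2 at 3251 and 3857 TPM and 1659 and 2052 TPM. The coding length deposited for his-4, 426 bases, is longer than its annotated span of 372 bases, so its level is lower than the span would give. The variant H2A.Z, encoded by htz-1, marks promoters and stood at 2609 and 2327 TPM. Histone genes were thus 10 of the 25 most abundant genes and 18 of the top 100.

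Most of the summed level of core histone genes came from 3 groups of neighbouring genes. The genes his-59 to his-62 (IV 7485834 to 7488659) together had 30252 and 29433 TPM, 39.6% of the 77692 and 73019 TPM of all core histone identifiers. The genes his-1 to his-4 (V 16040144 to 16042831) together had 30776 and 28784 TPM, or 39.5%. The neighbours his-67 and his-68 on chromosome I added 13.9%. Abundant genes outside these groups were the H3 gene his-32 (1518 and 1845 TPM) and the H4 gene his-31 (1505 and 1578 TPM), elsewhere on IV, and the H4 gene his-38 (1554 and 1363 TPM) on X. Each of the groups on IV and V carries a gene for every core histone, and their members differed in level: his-3 and his-2, in the same group, were far apart. By type, H4 genes summed to 32505 and 30001 TPM, H2A genes to 26330 and 24214 TPM, H2B genes to 12391 and 11014 TPM, and H3 genes to 6466 and 7790 TPM, although nucleosomes hold the core histones in equal amounts.

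Of 81 histone identifiers, 41 had no count and 35 reached 1 TPM, so the list's median was 0. This needs care, because core histone genes are near copies of each other. In the annotation used here 189 identifiers carry a symbol that another identifier also carries, and 182 of them had no count, which is 96.3%, against 9.10% of the 18589 identifiers whose symbol is theirs alone. Among histones, 35 of 36 such identifiers had no count. The treatment of reads that match several places is not given here, and its part in the zeros and in the order of the histone genes was not tested. The zero of such a copy cannot be read as silence. The replacement variant H3.3 is made throughout the cell cycle, and 4 of its 5 identifiers reached 1 TPM. Of these, his-72 stood at 1581 and 1445 TPM, his-71 at 89.4 and 108 TPM and his-74 at 142 and 75.9 TPM. Lower were his-69, with 14.9 and 13.2 TPM, and the remaining identifier his-70, with 1 and 0 counts. Linker histone H1 genes summed to 4416 and 7156 TPM, led by hil-7 (1275 and 2246 TPM), hil-2 (1299.7 and 1791 TPM) and his-24 (925 and 1893 TPM), all higher in replicate 2. The centromeric variant CENP-A, encoded by hcp-3, stood at 179.9 and 139.8 TPM, and its paralogue cpar-1 at 14.1 and 5.21 TPM.

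The other 15 genes of the top 25 covered the egg's membranes, recycling, protein synthesis and, at this rank, cuticle. The caveolin gene cav-1 (WBGene00000301, IV 9772510 to 9773559), whose protein coats membranes of oocytes and early embryos, had 6781 and 5894 TPM. The Atg8 homologue lgg-1, which marks autophagosomes, had 3353 and 3186 TPM, and epg-2, an adaptor that delivers protein aggregates to them in embryos, had 2086 and 2096 TPM. Protein synthesis was present with the elongation factor gene eef-1A.1 (1947 and 2047 TPM) and the ribosomal protein genes rps-23 (2377 and 2155 TPM) and rpl-32 (2012 and 2122 TPM). Calreticulin, a calcium-binding chaperone of the endoplasmic reticulum encoded by crt-1, had 2234 and 3461 TPM, and sip-1, a small heat shock protein of oocytes and embryos, had 2184 and 2189 TPM. The tumour protein homologue tct-1 had 2747 and 2199 TPM and the transthyretin-like gene ttr-50 had 2350.3 and 2200.1 TPM.

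The collagen genes dpy-14 and dpy-17 build the cuticle and had 3293 and 5671 TPM and 1300.2 and 2817 TPM. They were the genes of the top 25 with the widest gap between the libraries, and dpy-17 was over 2-fold higher in replicate 2. T24B8.3 (4912 and 6061 TPM), dao-2 (1857 and 2377.5 TPM) and C01G6.3 (2275 and 1803 TPM) complete the list. In the annotation crt-1, ttr-50, epg-2, rpl-32, C01G6.3 and eef-1A.1 lie across a gene on the opposite strand. Since the use of strand in counting is not given, their counts could hold reads of that partner. Ranked in each library alone, 22 of 25 genes and 83 of 100 were shared. Without division by length the list changed more, and 12 of the 25 remained.

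**Figure D2:**
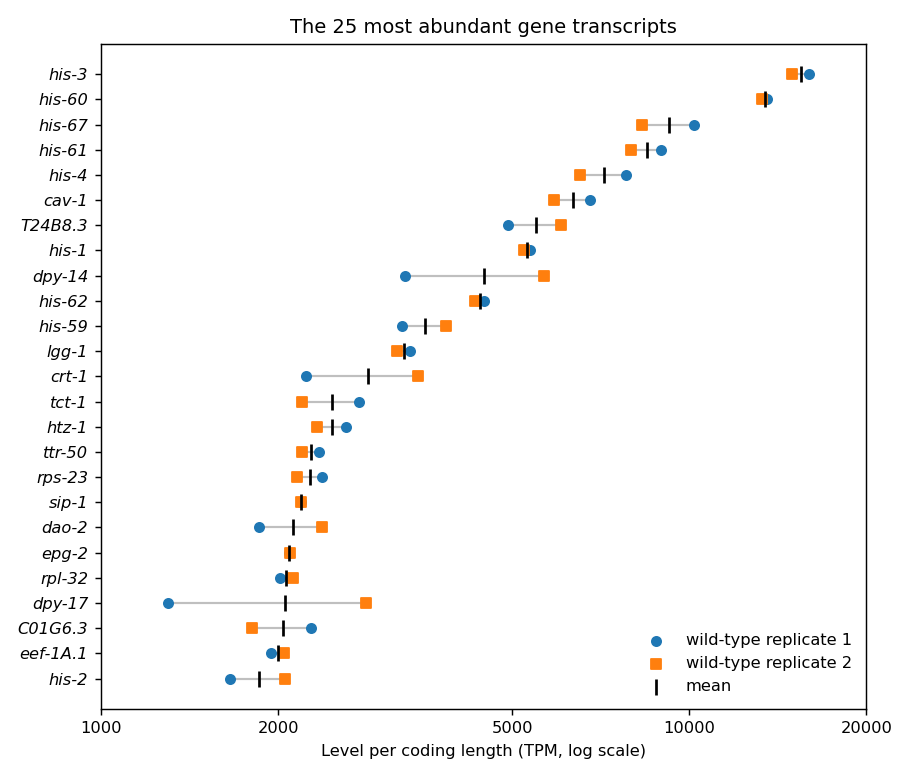
Levels of the 25 most abundant genes in each wild-type library, on a log axis of TPM per coding length, with ticks at the mean of both. Histone genes fill 10 of the 25 places, and dpy-17 (1300.2 and 2817 TPM) and dpy-14 (3293 and 5671 TPM) show the widest gaps.

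Genes that every dividing cell uses were almost all active. Of 80 ribosomal protein genes, 79 reached 1 TPM and the same 79 reached 100 TPM, against 58.0% and 12.7% of all genes. Their median was 533 TPM, they held 4.86% and 5.62% of the summed TPM, and they were 21 of the 100 most abundant genes. The highest after rps-23 and rpl-32 were rps-24 (1658 and 1689 TPM) and rps-0 (1351 and 1856 TPM), both of the small subunit. The lowest were rps-22 (109 and 125 TPM) and rpl-42, which had no count in either library. The part of reads that match several places in the zero of rpl-42 was not tested.

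All 36 translation factor genes were at 1 TPM or more, with a median of 175 TPM. Behind eef-1A.1, the elongation factors eef-1G and eef-2 had 976 and 750.5 TPM and 755 and 837 TPM, and the poly(A)-binding protein gene pab-1 had 614 and 909 TPM. The cap-binding protein gene ife-5 was the lowest with 8.76 and 6.25 TPM. The 31 aminoacyl-tRNA synthetase genes and the 65 mitochondrial ribosomal protein genes were likewise all at 1 TPM or more, at a lower median of 76.01 TPM and 84.3 TPM. Cytosolic ribosomal protein transcripts were thus several-fold above those of the mitochondrial ribosome on the same scale per length.

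RNA processing, protein turnover and energy supply followed. All 51 splicing factor genes were active with a median of 221 TPM, and snr-5, for an Sm protein of the spliceosome, had 1592 and 1259 TPM. All 33 proteasome genes were active with a median of 147 TPM. Among them the core subunit gene pas-5 had 511 and 294 TPM, and rpn-6.2 stood apart with 1.48 and 1.75 TPM. Of 67 chaperone genes, 62 were at 1 TPM or more. The prefoldin gene pfd-1 had 1595 and 1499.7 TPM, the endoplasmic reticulum Hsp70 gene hsp-3 had 912 and 1349 TPM and hsp-90 had 895 and 768 TPM. The stress-inducible genes hsp-16.1 and hsp-16.48 were listed without a count, but their symbols are among those shared by several identifiers.

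Of 45 genes of the respiratory chain and ATP synthase, 44 were active, led by the cytochrome c gene cyc-2.1 (1762 and 1524 TPM). Its paralogue cyc-2.2 had 0.852 and 0.663 TPM. The 19 glycolysis genes had a median of 44.7 TPM, below the 143 TPM of the respiratory list. The highest of them was aldo-2, an aldolase gene, with 395 and 331 TPM, and the lowest was pfk-1.2, a phosphofructokinase gene, with 0.0581 and 0 TPM. All 20 vacuolar ATPase genes were active with a median of 131 TPM. All 27 autophagy genes were active too, with a median of 116 TPM, and the lowest were unc-51 (17.3 and 26.1 TPM) and atg-10 (23.7 and 12.5 TPM).

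Genes of the cell cycle were almost all active. All 30 replication genes were at 1 TPM or more, with a median of 129.7 TPM. The ribonucleotide reductase subunit gene rnr-2, which supplies deoxynucleotides, had 993 and 679 TPM, the single-strand binding protein gene rpa-1 had 587 and 434 TPM and the sliding clamp gene pcn-1 had 427 and 295 TPM. Of 61 genes for cyclins, kinases and mitosis, 59 were active with a median of 109 TPM. Cyclin B3, encoded by cyb-3, and the mitotic kinase gene cdk-1 stood at 575 and 555 TPM and 496 and 401 TPM. All 15 centrosome genes were active, led by the scaffold gene spd-5 (253 and 219 TPM). All 46 genes of the nuclear pore and lamina were active, and lamin, encoded by lmn-1, had 395 and 349 TPM. Among 21 tubulin and actin genes the main embryonic tubulins tbb-2, tba-1 and tba-2 had 682 and 933 TPM, 756 and 804 TPM and 754 and 724 TPM. The low members included the actin gene act-1 (1.87 and 1.50 TPM), which is a near copy of other actin genes, so that its value is uncertain.

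**Figure D3:**
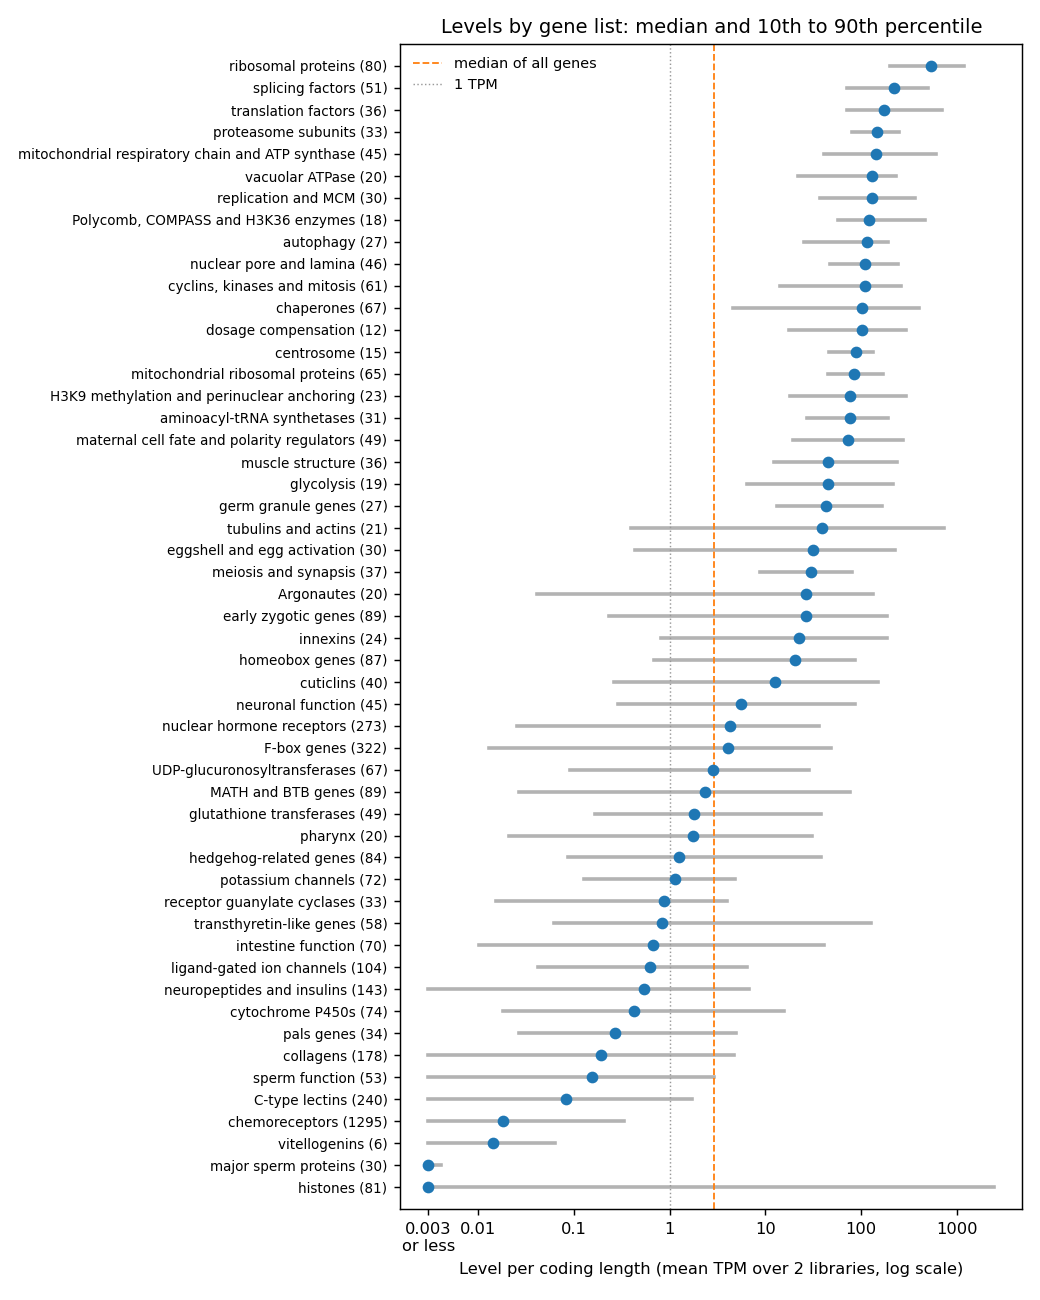
Median level (point) and span from the 10th to the 90th percentile (line) of 52 gene lists, on a log axis of mean TPM over both wild-type libraries, with the number of identifiers in brackets. Ribosomal protein genes have the highest median, 533 TPM, and the dashed line marks the median of all genes, 2.93 TPM; values of 0.003 TPM or less are drawn at the left edge.

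The label of an early embryo was checked against stage markers. Maternal and eggshell genes were present, at a higher share than the 58.0% of all genes at 1 TPM or more. All 49 maternal regulators of cell fate and polarity reached this mark, with a median of 73.1 TPM. So did 26 of 30 genes for the eggshell and egg activation. All 27 genes of germ granules, the RNA-rich bodies of the germ lineage, were active as well, with a median of 43.5 TPM. Reaching 1 TPM does not by itself tell stages apart, as 35 of 36 muscle genes and all 33 proteasome genes did so too. Yolk and sperm protein genes, as markers of the mother's body, were close to the floor. The 6 vitellogenin genes, for yolk proteins made in the adult intestine, were all below 1 TPM, with vit-1 highest at 0.114 and 0.0572 TPM. Of 30 major sperm protein genes, 27 had no count and the highest, msp-76, had 0 and 2 counts, though many of these genes are near copies. Lists that could also mark adult tissue were higher. At 1 TPM or more were all 37 genes of meiosis and synapsis and 30 of 70 intestine genes, against 58.0% of all genes. The part of adult tissue in these levels was not tested. Genes known from later embryos, of muscle and cuticle, were also present at the levels given further on, so the label does not cover all that the libraries held. The share of embryos at each stage cannot be told from these values.

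Polarity and RNA-binding genes that pattern the zygote were at moderate to high levels. The 14-3-3 gene par-5 had 716 and 525 TPM and the gene of the regulatory myosin light chain mlc-4 had 467 and 418 TPM, with its heavy chain gene nmy-2 at 249 and 218 TPM. The cortical polarity genes were lower: the anterior kinase gene pkc-3 had 127 and 111 TPM, par-3 had 108 and 115 TPM and par-6 had 39.6 and 43.9 TPM, and the posterior genes par-1 and par-2 had 47.1 and 65.7 TPM and 16.1 and 22.9 TPM. Among RNA-binding proteins, pos-1 had 395 and 317 TPM, spn-4 had 466 and 267 TPM, mex-6 had 214 and 159 TPM and mex-5 had 136 and 119 TPM. The germline factor pie-1, which keeps transcription off in the germ lineage, had 25.5 and 25.9 TPM. The oocyte regulators oma-1 and oma-2 were still at 46.6 and 50.4 TPM and 75.6 and 57.4 TPM. The lowest of the 49 were mes-1 (9.83 and 9.58 TPM) and the Delta-like ligand gene apx-1 (10.2 and 13.2 TPM).

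Transcripts of pathways that divide fates between sister cells were present, though not those of every gene looked at. Signalling itself was not measured. In the Wnt pathway, which polarises the endomesoderm precursor, the ligand gene mom-2 had 107 and 82.05 TPM and the Frizzled receptor gene mom-5 had 216 and 172 TPM. The beta-catenin genes wrm-1 and sys-1 had 125 and 139 TPM and 76.3 and 83.8 TPM, and their partners lit-1, a kinase, and pop-1, the TCF factor, had 50.5 and 72.8 TPM and 209.6 and 271 TPM. In the Notch pathway the receptor gene glp-1 had 128 and 103 TPM, far above its ligand gene apx-1. The Notch target ref-1 had 26.4 and 26.3 TPM and its relative hlh-26 had 7.51 and 2.48 TPM. The relatives hlh-25 and hlh-27 had 0.196 and 0.262 TPM and 0.273 and 0.191 TPM, hlh-28 had 1 and 0 counts and hlh-29 had none. As hlh-28 and hlh-29 lie close together on X with spans of equal length, they may be near copies, and their counts are uncertain.

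The gut pathway, from maternal trigger to differentiation factor, was present at every step but at very different levels. The maternal factor gene skn-1 had 44.8 and 42.9 TPM. Its direct targets med-1 and med-2 are active for a short time and stood at 2.72 and 0.822 TPM and 2.97 and 1.17 TPM. Both have a coding length of 525 bases, so as possible near copies their levels are uncertain. The next factors end-3 and end-1 stood at 12.97 and 4.94 TPM and 44.4 and 28.1 TPM. The intestinal GATA factor genes elt-7 and elt-2, which take over for life, had 31.9 and 29.1 TPM and 34.3 and 47.3 TPM. The early steps were higher in replicate 1 and elt-2 was higher in replicate 2.

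Mesoderm, pharynx and skin regulators ranged widely. The MS lineage factor genes tbx-35 and ceh-51 had 3.75 and 1.35 TPM and 39.97 and 21.7 TPM, and tbx-37 and tbx-38, which act in the AB-derived pharynx precursors, had 11.2 and 7.30 TPM and 11.8 and 8.07 TPM. The muscle factor genes hnd-1, hlh-1 and unc-120 had 78.8 and 66.4 TPM, 60.9 and 82.7 TPM and 202 and 268 TPM, and the pharynx selector gene pha-4 had 144 and 216 TPM. In the skin pathway, which runs from elt-1 to lin-26, nhr-25 and elt-3, the values were 119.6 and 139 TPM, 164 and 253 TPM, 58.9 and 72.2 TPM and 39.01 and 62.6 TPM. The caudal homologue pal-1, which specifies the C lineage, had 209 and 155 TPM and its target vab-7 had 20.1 and 24.8 TPM. Of the regulators named here, spn-4, mlc-4, pkc-3, par-3, par-1, pie-1, mom-5, glp-1, skn-1, end-3, ceh-51, tbx-38, hlh-1, pal-1 and hlh-27 lie across a gene on the opposite strand.

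Of 89 early zygotic genes, 78 reached 1 TPM (87.6%, against 58.0% of all genes), with a median of 26.3 TPM. The highest were vet-2 (481 and 359 TPM), the homeobox gene ceh-43 (356 and 298 TPM), sdz-28 (357 and 235 TPM) and sdz-30 (279 and 242 TPM). The vet and sdz genes take their names from very early transcription and from zygotic targets downstream of SKN-1. The somatic marker of genome activation pes-10 had 225 and 119 TPM. Among homeobox genes, 72 of 87 were at 1 TPM or more, with ceh-20, for a cofactor of Hox proteins, at 252 and 358 TPM and the anterior Hox gene ceh-13 at 180.2 and 168 TPM. The posterior Hox genes nob-1 and php-3 had 37.1 and 37.002 TPM and 27.6 and 31.7 TPM. Of 273 nuclear hormone receptor genes, 183 were at 1 TPM or more (67.0%, against 58.0% of all genes), with a median of 4.30 TPM, against 2.93 TPM for all genes. The most abundant receptor was nhr-68 (174 and 206 TPM), followed by nhr-2 (152 and 153 TPM) and the X-chromosome counting gene sex-1 (132 and 165 TPM).

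Chromatin genes, including those deleted in the other strains of the series, were active. Methylation of histone H3 at lysine 9 (H3K9) marks heterochromatin, and the chromodomain protein CEC-4 holds it at the nuclear envelope. Of 23 genes linked to H3K9 methylation and anchoring, 22 were at 1 TPM or more, with a median of 76.7 TPM. The chromodomain gene cec-5 was highest at 1195 and 1131 TPM. The anchor gene cec-4 (WBGene00017990) had 419 and 432 TPM, several-fold above the methyltransferase genes met-2 (122 and 117 TPM) and set-25 (63.8 and 57.3 TPM). The methyltransferase-like gene set-11 was near the floor with 3 and 3 counts. Both cec-4 and set-25 lie across a gene on the opposite strand.

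All 18 genes listed for Polycomb, COMPASS and related histone enzymes were active, with a median of 119.9 TPM. The highest was set-1 (1043 and 937 TPM), whose product methylates histone H4 and acts in dosage compensation rather than in those complexes. The COMPASS subunit gene dpy-30 had 939.7 and 655 TPM and the Polycomb methyltransferase gene mes-2 had 51.6 and 46.1 TPM. All 12 genes listed for dosage compensation, which lowers expression from both X chromosomes of hermaphrodites, were active. The condensin subunit genes dpy-27, mix-1 and dpy-26 had 281 and 319.7 TPM, 243 and 278 TPM and 228 and 244 TPM, and sdc-2, the gene that triggers the process, had 96.7 and 111 TPM. The male-determining genes xol-1 and her-1 were lowest with 13.9 and 12.6 TPM and 10.4 and 11.7 TPM. Among 20 Argonaute genes, 17 were at 1 TPM or more. The nuclear small-RNA carrier gene nrde-3 had 213 and 210.1 TPM, and alg-3, known from sperm development, had 1 and 6 counts.

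Transcripts of meiosis were present and those of sperm mostly were not. All 37 genes of meiosis and synapsis were at 1 TPM or more, with a median of 30.3 TPM, led by him-17 (142 and 130.5 TPM) and the synaptonemal complex gene syp-2 (133 and 66.9 TPM). Only 10 of 53 sperm function genes were (18.9%, against 58.0% of all genes). The highest of these, spe-48 and spe-39, had 48.9 and 46.9 TPM and 36.4 and 37.6 TPM. Eggshell genes spread widely: the chondroitin proteoglycan genes cpg-1 and cpg-24 had 337 and 235.6 TPM and 239 and 312 TPM, whereas perm-2 and perm-4 had 0 and 4 counts and 0 and 1 counts. Among germ granule genes the translational repressor genes ifet-1 and cgh-1 were highest, with 314 and 324 TPM and 241 and 249 TPM, and glh-4 and meg-2 lowest, with 8.69 and 11.4 TPM and 8.33 and 9.22 TPM.

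Structural genes of the later embryo divided by tissue. In bulk RNA, fewer cells of a type and less RNA per cell cannot be told apart. Of 36 muscle genes, 35 were at 1 TPM or more (97.2%, against 58.0% of all genes), with a median of 45.5 TPM. The integrin gene pat-3 had 380.2 and 394 TPM, and the troponin genes tni-1 and pat-10 had 254 and 436 TPM and 263 and 408 TPM. The body wall myosin gene myo-3 had 63.6 and 127 TPM. All 35 of these genes were higher in replicate 2 in TPM. Of 20 pharynx genes, 11 were at 1 TPM or more, close to the share of all genes, and the regulators pha-4 and ceh-34 (34.7 and 43.1 TPM) stood well above the gland genes phat-3, with 1 and 0 counts, and phat-7, with no count. Of 45 neuronal genes, 34 were at 1 TPM or more (75.6%). These were led by syd-2 (149.6 and 210.1 TPM) and the ankyrin gene unc-44 (80.5 and 135 TPM), while the transmitter transporter genes unc-17 and eat-4 had 4 and 16 and 4 and 3 counts.

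Collagens ranged from abundant members to many without a count. Of 178 collagen genes, 47 were at 1 TPM or more (26.4%, against 58.0% of all genes). No count was found for 36 (20.2%, against 10.7% of all genes), and the median was 0.192 TPM. Collagens nevertheless made up 0.656% and 1.23% of the summed TPM, and 11 members were at 100 TPM or more. After dpy-14 and dpy-17 the highest were sqt-3 (362 and 965 TPM), dpy-7 (308 and 533 TPM), col-121 (295 and 441 TPM) and dpy-2 (255 and 406 TPM), all higher in replicate 2. The apical matrix that precedes the cuticle was represented by noah-1 (539 and 708 TPM), noah-2 (322 and 559 TPM) and fbn-1 (192 and 254 TPM), among 40 genes for cuticlins and related zona pellucida-domain proteins, of which 30 were at 1 TPM or more. Of 84 hedgehog-related genes, 44 were (52.4%, near the share of all genes), led by wrt-10 (419 and 600.2 TPM) and the patched-related gene ptr-4 (93.8 and 177 TPM).

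Of 70 intestine genes, 30 were at 1 TPM or more (42.9%, against 58.0% of all genes) and the median was 0.671 TPM, below the median of all genes. The saposin-like gene spp-15 and the aspartic protease gene asp-4 were exceptions with 258 and 291 TPM and 248 and 275 TPM, and both lie across a gene on the opposite strand. Innexins, the gap junction proteins, were active in 21 of 24 cases (87.5%). The highest was inx-3 with 1408 and 1371 TPM, again with a gene opposite, followed by inx-2 (486 and 431 TPM), whereas inx-8 had 3 and 2 counts.

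Families that work in sensing, defence and signalling after hatching had medians below the 2.93 TPM of all genes, and chemoreceptors had the lowest among them. Among 1295 chemoreceptor genes, 41 were at 1 TPM or more (3.17%, against 58.0% of all genes) and 482 had no count. The highest chemoreceptor was srr-4 with 6.16 and 12.5 TPM, then sru-20 with 7.86 and 7.79 TPM. Of 33 receptor guanylate cyclase genes, 14 were at 1 TPM or more, led by gcy-28 (18.01 and 19.5 TPM). Of 143 neuropeptide and insulin genes, 58 were, with nlp-31 (262 and 515 TPM) and ins-2 (111 and 92.9 TPM) highest. Of 104 ligand-gated ion channel genes, 42 were, and none exceeded lgc-27 (44.3 and 68.8 TPM). Of 72 potassium channel genes, 37 were, led by twk-18 (20.2 and 41.7 TPM).

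C-type lectins, carbohydrate-binding proteins often tied to immunity, had a median of 0.0821 TPM over 240 genes. At 1 TPM or more were 38 of them (15.8%, against 58.0% of all genes). Yet clec-87 had 1408 and 676 TPM and clec-266 had 899 and 1031 TPM, levels of the 100 most abundant genes, and clec-88 had 771 and 489.6 TPM. Both clec-87 and clec-266 lie across a gene on the opposite strand and clec-88 overlaps a gene on its own strand, so their counts could hold reads of these partners. Transthyretin-like genes were similar, with a median of 0.827 TPM over 58 genes below an abundant ttr-50. Of 34 pals genes, 12 were at 1 TPM or more. Among them pals-25 and pals-22, a pair that controls the response to intracellular infection, had 31.4 and 42.7 TPM and 23.4 and 32.5 TPM.

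F-box genes were active about as often as genes in general. Of 322, 199 were at 1 TPM or more (61.8%, against 58.0% of all genes), and their median was 4.10 TPM. F-box proteins bring substrates to ubiquitin ligases, and fbxc-51 and fbxb-66 had 521 and 562 TPM and 207 and 129 TPM. The MATH and BTB genes, also of ubiquitin ligase adaptors, had 51 of 89 at 1 TPM or more, with bath-9 at 228 and 269 TPM. Detoxification enzymes varied by class. Of 67 UDP-glucuronosyltransferase genes 42 reached 1 TPM with a median of 2.85 TPM, of 49 glutathione transferase genes 29 did (1.78 TPM), and of 74 cytochrome P450 genes 30 did (0.425 TPM). Their highest members were ugt-23 (65.4 and 62.97 TPM), gst-1 (266 and 190.2 TPM) and cyp-42A1 (68.04 and 107 TPM).

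Genes without a count in either library numbered 2154, and 2998 and 2849 had none in replicate 1 and in replicate 2. Chemoreceptors alone were 22.4% of them, and all large-family lists together 28.2%, with 607 of 2604 members at 0 (23.3%, against 10.7% of all genes). Among protein-coding genes 1872 of 18772 were at 0, and among genes annotated as pseudogenes 177 of 720. A further 159 pseudogenes were at 1 TPM or more, led by WBGene00007902 (164 and 232 TPM) and its close neighbour on chromosome IV, WBGene00007899 (153 and 204 TPM). Short genes were at 0 more often. Among genes with coding lengths of 60 to 540 bases 19.2% had no count, against 1.64% at 1657 bases or more. The share was not a smooth function of length, with 11.0% from 543 to 894 bases and 16.5% from 897 to 1134 bases.

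The longest protein-coding genes without a count are those where depth limits least. The longest was F07B7.12 (V 8855134 to 8862049, coding length 5703 bases). Next were the vitellogenin genes vit-4 (X 3558769 to 3563965) and vit-5 (X 3403471 to 3408603), near copies with the same coding length of 4812 bases. The others were ZC178.2, frm-5.2, F26C11.3, F36D3.5, gcy-3, gcy-1 and F56D5.9, of which gcy-3 and gcy-1 encode receptor guanylate cyclases of sensory neurons and lie close together on chromosome II. For coding lengths like these the floor of 3 counts per library lies well below 0.1 TPM. This floor bounds no level for near copies such as vit-4 and vit-5, because the treatment of reads that match both is not given. Whether the other genes have near copies was not tested, and F07B7.12 lies beside histone genes with shared symbols and no count.

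Genes without a count were not spread evenly over the chromosomes. Near copies are among them, as 182 of 189 identifiers with a shared symbol had no count, and their part in the shares by chromosome was not tested. On chromosome V 20.0% of 4920 genes had no count, followed by 11.5% on IV, 8.46% on II, 6.40% on X, 5.00% on I and 4.22% on III. Chromosome V carries many chemoreceptor and other large-family genes. With the large-family lists left out, 15.4% of its genes had no count, which was still above the other chromosomes. The median level was highest where genes without a count were fewest, with 20.8 and 22.2 TPM on III and 17.97 and 19.2 TPM on I. It was 2.90 and 3.88 TPM on II, 2.82 and 4.26 TPM on X, 1.93 and 2.74 TPM on IV and 0.274 and 0.373 TPM on V.

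The outer parts of the autosomes, where repeats and H3K9 methylation are known to be concentrated, had lower levels than their middle. Arms were taken as the outer 25% at each end of a chromosome. Genes on arms had a median of 0.930 and 1.23 TPM, against 5.26 and 7.17 TPM in the centres, a log2 difference of -2.55 for the mean level. The arm median was below the centre median on each of the autosomes: 9.37 against 33.2 TPM on I, 1.64 against 7.91 TPM on II, 12.4 against 33.8 TPM on III, 1.35 against 3.54 TPM on IV and 0.103 against 0.974 TPM on V. Among genes at 1 TPM or more the medians were 26.5 TPM on arms and 46.8 TPM in centres. No count was found for 14.0% of arm genes and 8.85% of centre genes. Without the large-family lists these shares were 10.9% and 7.61%.

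The comparison of X with autosomes gave opposite answers with and without genes that had no count. Over all genes the median was 2.82 and 4.26 TPM on X and 2.43 and 3.28 TPM on autosomes, a log2 difference of 0.30. X had fewer genes without a count, 6.40% against 11.2%. With the genes without a count left out, a choice made after the values were seen, the median was 3.79 and 5.75 TPM on X and 5.44 and 7.18 TPM on autosomes, a log2 difference of -0.43. Among genes at 1 TPM or more, likewise chosen after the values were seen, the median was 16.8 and 22.8 TPM for 1670 genes on X, against 36.04 and 37.2 TPM for 9699 autosomal genes, a log2 difference of -0.87. At 100 TPM or more were 211 genes on X and 2326 on the autosomes.

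**Figure D4:**
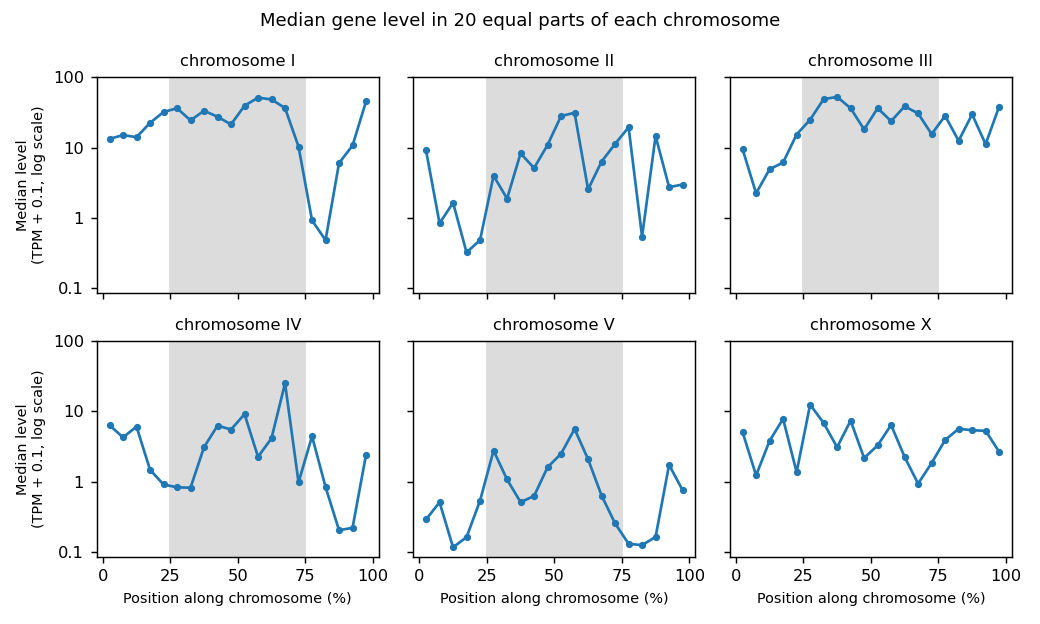
Median gene level in 20 parts of equal length along each chromosome, on a log axis of mean TPM plus 0.1, with the centres of the autosomes shaded. On each autosome the lowest of the 20 parts lies in an arm and is not the outermost part. Chromosome V is lowest, and its arms have a median of 0.103 TPM, against 0.974 TPM in its centre.

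Close neighbours on the same strand were closer in level than close neighbours on opposite strands. Many genes of C. elegans are transcribed together in operons, whose members lie close together on one strand. The 3116 pairs on the same strand with a gap of up to 500 bases had a median absolute log2 difference of 1.63, and in 60.2% of them both genes were at 1 TPM or more. The 1943 pairs on opposite strands with such a gap had a median difference of 2.10, and 47.9% were both active. Pairs further apart differed by 2.19 on the same strand and by 2.45 on opposite strands. Close pairs on the same strand also had the highest levels, with a median of 24.1 TPM, and the part of this level in their smaller difference was not tested. Pairs share libraries and genes, so they are not independent.

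The wild-type libraries differed in the levels of many genes, stage markers among them. Among the 11710 genes at 1 TPM or more, 988 (8.44%) were over 2-fold higher in replicate 2 and 145 (1.24%) were over 2-fold higher in replicate 1. The balance depends on the scaling: replicate 2 held 87.2% of these calls in TPM, 68.9% with TMM scaling (604 and 272 genes) and 61.5% with DESeq2 size factors (523 and 327 genes). The median log2 of replicate 2 over replicate 1 over the 11710 genes was 0.12 in TPM, -0.03 with TMM and -0.08 with DESeq2 size factors. Differences of lists are to be read against these medians.

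Lists of differentiation genes had medians above 0, that is higher in replicate 2, under each scaling. Of all 11710 genes, 6869 were higher in replicate 2 in TPM (58.7%) and 5250 with DESeq2 size factors. In muscle structure 35 of 35 active genes were higher in TPM and 34 with either other scaling, with a median log2 difference of 0.96 in TPM, 0.81 with TMM and 0.77 with DESeq2 size factors. In TPM, hedgehog-related genes were higher in 39 of 44 cases (median 0.85), collagens in 44 of 47 (0.79), intestine genes in 27 of 30 (0.76), cuticlins in 30 of 30 (0.70) and neuronal genes in 33 of 34 (0.67). With DESeq2 size factors these counts were 37 for hedgehog-related genes, 42 for collagens, 24 for intestine genes, 30 for cuticlins and 31 for neuronal genes. Examples were sqt-3 and myo-3, given above. Among all genes at 10 TPM or more the largest differences in this direction were in K10D3.6 (33.9 and 231 TPM), the alcohol dehydrogenase gene adh-1 (6.29 and 35.2 TPM), eppl-1 (14.99 and 79.6 TPM), T03F1.6 (13.2 and 69.6 TPM) and the cuticlin gene cut-2 (5.67 and 27.8 TPM).

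The lists with the lowest medians were mixed in function, and most of their active members were higher in replicate 1, against 4841 of all 11710 genes (41.3%). This held for 19 of 26 eggshell genes (median log2 of replicate 2 over replicate 1 -0.63 in TPM), 35 of 37 meiosis genes (-0.52), 30 of 33 proteasome genes (-0.48), 154 of 199 F-box genes (-0.41), 22 of 30 replication genes (-0.40) and 53 of 78 early zygotic genes (-0.33). Mitochondrial ribosomal protein genes (55 of 65) and aminoacyl-tRNA synthetase genes (26 of 31) were also mostly higher in replicate 1, by smaller medians (-0.14 and -0.17). The germ cell regulator nos-2 had 84.3 and 36.02 TPM and the eggshell gene cpg-2 had 285 and 124 TPM. The largest differences in this direction were in F23A7.8 (17.6 and 3.17 TPM) and its neighbour F23A7.4 (15.7 and 4.47 TPM) on X, in cpg-3 (69.5 and 21.4 TPM), C15B12.3 (42.2 and 13.1 TPM) and C50E3.12 (23.6 and 8.37 TPM). TMM and DESeq2 scaling lower every list's median by the same amount as that of all genes, so the place of a list against all genes does not depend on the scaling. The sign does for vacuolar ATPase, chemoreceptors, UDP-glucuronosyltransferases, dosage compensation and autophagy, whose medians in TPM lay within that amount of 0. Levels of stage-dependent genes given as a mean of these libraries are therefore averages over libraries that differed. As each culture gave a single library, differences of culture and of library preparation cannot be told apart. The part of embryo age in these differences was not tested.

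**Figure D5:**
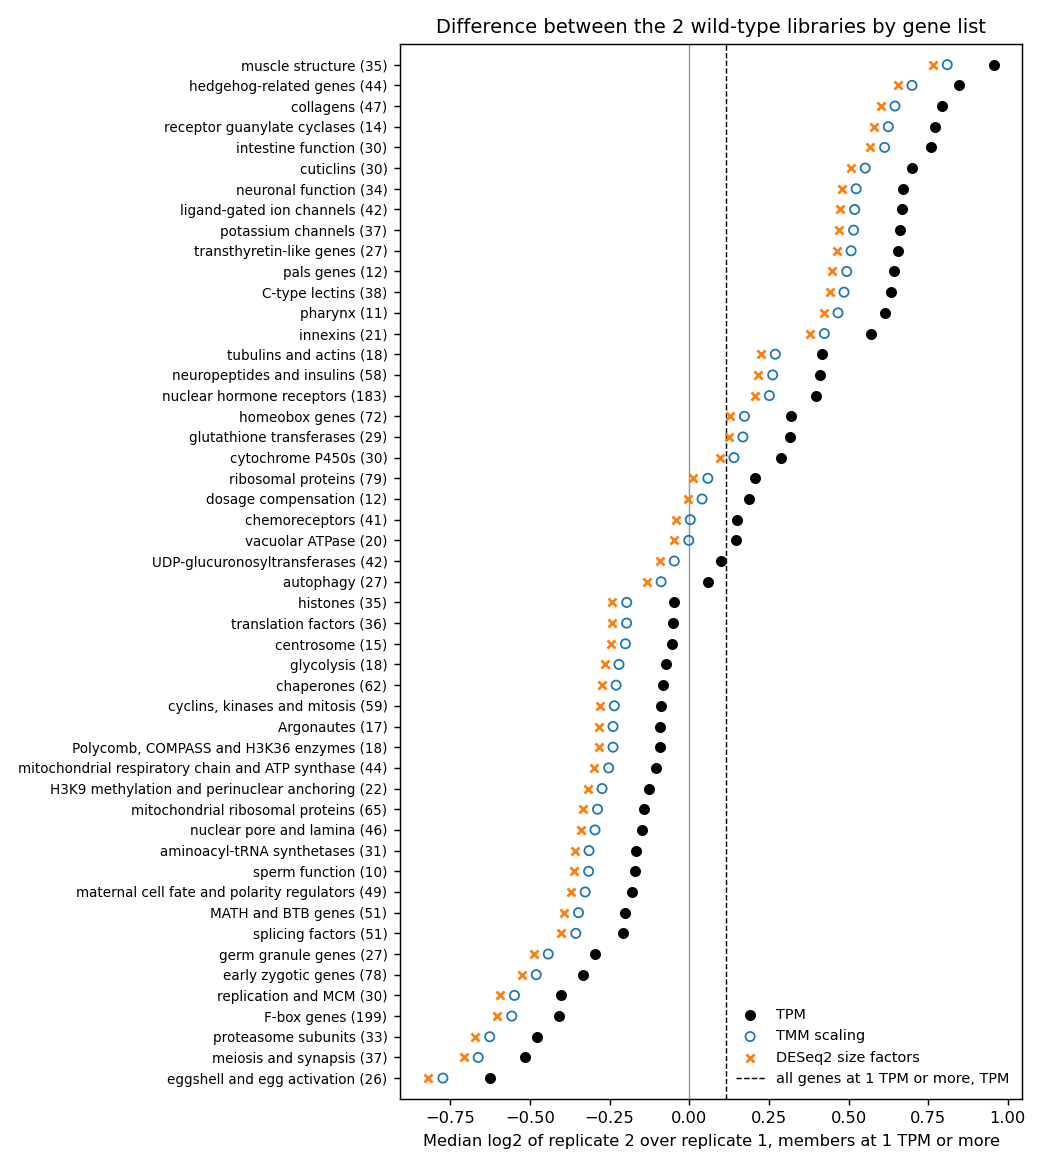
Median log2 difference, replicate 2 over replicate 1, of each list with at least 10 members at 1 TPM or more, under 3 scalings; the number of those members is in brackets and the dashed line marks the median of all 11710 such genes in TPM. Muscle structure lies highest (0.96 in TPM) and the eggshell list lowest (-0.63).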

How the data were processed

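The authors deposited whole-number read counts per gene, with a width for each gene, and these counts were the only values used. Per the labels, RNA depleted of ribosomal RNA (5 µg of total RNA, Ribo-Zero) went into ScriptSeq v2 libraries (50 ng), which were sequenced in pools of 3 for 51 cycles on an Illumina HiSeq instrument. Neither aligner and counting tool, nor genome build, nor strand use, nor the treatment of reads with several matches was given in the sources used here. Widths are multiples of 3 for 96.63% of genes, so they were read as coding lengths, and untranslated regions appear not to be counted. The 4 columns of other genotypes were used for library totals alone. The authors' normalized values and counts over windows were not used here.

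TPM were computed in Python 3.11.15 (pandas 2.3.3) as count over width, scaled to a sum of 1000000 over all 20182 genes. TMM factors came from edgeR 4.0.16 in R 4.3.3, and size factors were computed by the median-of-ratios method of DESeq2. Positions, biotypes and overlaps came from the WBcel235 annotation by gene identifier, which matched 19513 genes, none of them mitochondrial; 18778 identifiers had a symbol. Of the genes, 5155 overlap another annotated gene and 4296 overlap one on the opposite strand; families of near copies and such genes are uncertain. The 52 gene lists were matched by symbol. No test was made, since all values describe 1 group. The calculation was tested on simulated counts.

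The genes named are the 25 of highest mean level; in each list up to 4 of highest level, up to 6 where the median is under 1 TPM, and the 2 lowest where it is at least 1 TPM; the longest protein-coding genes without a count; the genes that differed most between the libraries at a mean of 10 TPM or more; those next to 1 TPM; and the maternal and early zygotic regulators. The histone genes beyond the highest, act-1, met-2, set-25, myo-3, cpg-2, sdc-2 and the pseudogenes named fall outside this rule and were chosen after their values were seen. The members and lists were chosen with earlier results of these data known, and list patterns that caught genes of other families were corrected after values had been seen. Alternatives were other scalings, no division by length, filters on length, overlap and low counts, other thresholds, and each library left out.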

Additional observations from a re-analysis of the deposited data

How the results depend on the processing

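The count of 11710 genes at 1 TPM or more stayed between 9247 and 12856 under the other scalings, thresholds and filters on length and low counts, and was 7779 among genes that overlap no other annotated gene; with a library left out it was 11398 to 11948. The top 100 share of 20.3% was 15.5% as CPM with no length, 20.8% at coding lengths of at least 300 bases, 26.1% without overlapping genes and 14.6% without the histone list, an alternative added after seeing the data; with a library left out it was 20.3% to 20.5%. Of the 25 most abundant genes 12 were shared as CPM, 18 without overlapping genes and 23 to 24 with a library left out. Genes at 0 counts numbered 3914 with a summed count of at most 3, 5386 with a summed count under 10, and 2849 to 2998 with a library left out. Genes over 2-fold apart numbered 1133, or 367 at a mean of at least 10 TPM, 588 with a pseudocount of 1 TPM and no filter, and 54 at a fold of 4. The log2 difference of X from autosomes, 0.30, was 1.11 without overlapping genes and turned to -1.04 with a summed count of at least 10 and to -0.87 among genes at 1 TPM or more and -0.43 among genes with a count (both added after seeing the data); each of these filters removes genes without a count, of which X had fewer. With a library left out it was 0.22 to 0.38. The log2 difference of arms from centres, -2.55, was -2.65 as CPM, -2.69 at coding lengths of at least 300 bases, -2.62 without overlapping genes, -1.18 with a summed count of at least 10, and -2.54 to -2.499 with a library left out. List medians kept their side of 1 TPM in 52 of 52 lists at coding lengths of at least 300 bases, and 2 changed side as CPM, 2 under TMM scaling, 2 under DESeq2 size factors, 2 without overlapping genes 7 of 51 with a summed count of at least 10 and 3 without replicate 2 (pharynx, hedgehog-related and potassium channel genes). Medians moved by over 1.5 times in 18 lists as CPM (ribosomal proteins 227 CPM, against 533 TPM), 17 with a summed count of at least 10 and 7 without overlapping genes. Left out in turn, replicate 2 moved the pharynx, neuronal and cuticlin medians by over 1.5 times (0.877, 3.42 and 8.40 TPM without it), and replicate 1 the pharynx, chemoreceptor and eggshell medians (2.64, 0.0279 and 19.96 TPM without it). No paired analysis was possible because all values describe 1 group and no test was made. The planned comparison of codon use by level was not run, since it needs sequences that were not used here. Depth limits levels below about 0.1 TPM, and multi-copy genes are limited by how shared reads were counted.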
